A study of Homo sapiens with 33 samples.

Results

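H3K27me3, the trimethyl mark on lysine 27 of histone H3, was compared between EZH2-/- (Null) and EZH2+/+ (WT) human ESCs at 149487 start-site windows, the windows on chromosomes 1 to 22 among 153958 in the deposited table. The windows carry 34447 gene names and 53993 of them do not overlap another. Each window reaches 2.5 kb to either side of an annotated transcript start. Values are RPM (reads-per-million), the reads in the window scaled to the size of the library, and a change is the Null value minus the WT value on the log2 scale, so that negative values mean less in Null.

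The cells were H9 human ESCs, grown on mouse feeder cells and sorted for the surface antigen SSEA4. WT is the parental line. Het (EZH2-/+) was made with CRISPR/Cas9 and a guide RNA against an early exon of EZH2. Null (EZH2-/-) came from a Het line that carried a DOX-inducible EZH2 transgene on a piggyBac transposon, was targeted again while DOX was present, and was then kept without DOX; Null+EZH2 (EZH2-/- +EZH2) is the same line with DOX. Null and Null+EZH2 therefore share the transgene and a further round of targeting that WT lacks, and differ from each other by DOX and the transgene's expression. The labels name 4 samples for the comparison: H3K27me3 and input chromatin (the MNase-digested chromatin before immunoprecipitation) in WT and in Null. Each deposited ChIP-seq column is 1 value per genotype, a mean over libraries, so no test between genotypes was possible for H3K27me3. Lower and higher below mean by 1 or more on the log2 scale, and the errors given are counting errors from the recovered read depth, which leave out the spread between cultures and are therefore smaller than the full error.

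EZH2 is the catalytic subunit of Polycomb repressive complex 2 (PRC2), which places methyl groups on H3K27. EED and SUZ12 are its core partners, and EZH1 is a related enzyme. H3K27me3 marks CpG-rich promoters of developmental regulators that are silent or barely transcribed in ESCs, and PRC1 complexes bind the mark through their CBX subunits.

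The promoters below show the kinds of sequence that the comparison turns on. They are RefSeq promoters (GRCh38.p14), from 250 bases before to 50 bases after the start, written 5′ to 3′, with every CG dinucleotide in capitals. HOXA7 (chr7:27156626-27156925, minus strand), HAND1 (chr5:154478178-154478477, minus strand) and WNT3A (chr1:228006748-228007047, plus strand) carried the most WT H3K27me3 of the HOX, lineage bHLH and WNT lists among genes present in the RefSeq table. RPL21 (chr13:27251308-27251607, plus strand) and OR51G1 (chr11:4924290-4924589, minus strand) lay nearest the median change of the ribosomal protein and olfactory receptor lists.
HOXA7: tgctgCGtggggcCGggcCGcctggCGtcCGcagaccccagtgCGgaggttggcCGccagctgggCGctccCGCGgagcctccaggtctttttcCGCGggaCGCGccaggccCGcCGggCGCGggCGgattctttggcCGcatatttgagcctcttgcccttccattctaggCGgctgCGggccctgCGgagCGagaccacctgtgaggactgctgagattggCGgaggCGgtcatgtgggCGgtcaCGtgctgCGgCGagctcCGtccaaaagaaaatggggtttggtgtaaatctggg
HAND1: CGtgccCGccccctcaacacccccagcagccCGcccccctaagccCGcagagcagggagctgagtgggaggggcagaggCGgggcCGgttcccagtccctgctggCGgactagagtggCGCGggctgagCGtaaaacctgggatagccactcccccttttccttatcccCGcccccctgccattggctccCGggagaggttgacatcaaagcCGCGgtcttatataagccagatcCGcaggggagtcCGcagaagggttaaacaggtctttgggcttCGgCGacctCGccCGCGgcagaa
WNT3A: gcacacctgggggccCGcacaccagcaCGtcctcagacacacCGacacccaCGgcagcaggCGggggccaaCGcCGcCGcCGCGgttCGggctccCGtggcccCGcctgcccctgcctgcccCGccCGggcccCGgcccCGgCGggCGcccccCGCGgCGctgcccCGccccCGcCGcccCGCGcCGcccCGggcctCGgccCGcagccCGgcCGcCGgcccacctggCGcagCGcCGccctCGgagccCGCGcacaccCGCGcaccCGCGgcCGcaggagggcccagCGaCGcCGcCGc
RPL21: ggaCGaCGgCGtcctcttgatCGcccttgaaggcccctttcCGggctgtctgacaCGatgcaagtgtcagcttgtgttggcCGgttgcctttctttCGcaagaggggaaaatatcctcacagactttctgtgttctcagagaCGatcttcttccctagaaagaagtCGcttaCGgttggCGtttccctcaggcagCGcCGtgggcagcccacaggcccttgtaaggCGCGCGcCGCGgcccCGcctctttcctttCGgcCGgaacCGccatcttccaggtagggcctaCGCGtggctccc
OR51G1: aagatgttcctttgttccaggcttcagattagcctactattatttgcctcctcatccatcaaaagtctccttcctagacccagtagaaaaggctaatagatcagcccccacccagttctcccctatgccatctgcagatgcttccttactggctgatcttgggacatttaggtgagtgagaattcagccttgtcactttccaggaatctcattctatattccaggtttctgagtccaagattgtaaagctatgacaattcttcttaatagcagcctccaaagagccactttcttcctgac
These stretches of 300 bases hold 31 CG dinucleotides in HOXA7, 21 in HAND1, 49 in WNT3A, 25 in RPL21 and 0 in OR51G1. HOXA7 went from 58.5 RPM in WT to 6.90 in Null, HAND1 from 48.8 to 2.33 and WNT3A from 44.7 to 2.74. RPL21, with a count of CG between those of HAND1 and HOXA7, held 0.789 RPM in WT and 0.892 in Null, both below the Null input of 1.54. OR51G1 held 0.728 RPM in WT and 0.865 in Null, against an input of 1.89. For the olfactory receptor list the RefSeq start had to lie inside a deposited window. This condition was added after the values were seen, because OR2M4, OR6C1 and OR4D10 stood nearer the median with starts 4058 to 7512 bases from a window centre.

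Depth set the precision of single windows. The low values of the H3K27me3 columns step as a mean of 2 libraries does, with 9.11 M reads per library in WT, 11.9 in Het, 13.8 in Null and 15.1 in Null+EZH2, and 17.8 to 23.8 M reads in the inputs. At the median window this is 13.6 reads per library in WT and 11 in Null. The counting error of a change was 0.41 (log2) at the median window and 0.19 at the median of windows with 32 RPM or more in WT. The study's methods speak of more biological replicates per column than the labels number or these steps show, so depths, floors and counting errors hold for this reading of the steps. A floor of 3 reads corresponds to 0.329 RPM in WT and 0.217 in Null. RPM is a share of each library, so a loss common to all regions would not show in it, and no spike-in scale was used here. A loss in some regions raises the share of the others.

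The RNA-seq libraries of the same cells (3 per genotype) showed the target first. EZH2 RNA stood at 68.6, 63.3 and 59.5 RPM in WT and at 11.5, 8.65 and 9.68 in Null. The groups did not overlap, and the log2 change was -2.68 (SE 0.17, n = 3 per group, limma adjusted p = 5.05e-06). Het libraries held 45.7 to 55.4 RPM and Null+EZH2 libraries 256 to 385 RPM. EZH1 RNA was also lower in Null, by -1.34 (SE 0.21, limma adjusted p = 0.000649), at 8.54 to 14.0 RPM against 23.4 to 33.1 in WT. It stood at 17.6 to 25.9 RPM in Het and at 13.5 to 15.3 RPM in Null+EZH2, so it was low with the transgene on as well. At the EZH2 start sites themselves H3K27me3 was low in both lines, 1.54 RPM in WT and 1.23 in Null.

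H3K27me3 was lower in Null nearly wherever WT had it. The median level was 1.5 RPM in WT and 0.792 in Null, with a median change of -0.82 and quartiles of -1.84 and -0.07. Of all windows, 66271 (44.3%) were lower in Null and 5303 (3.55%) were higher. Null stood below each of the 3 EZH2-containing lines in 89632 windows (60%). Measured in the same way, Het differed from WT by a median of -0.16 and Null+EZH2 by -0.27, with 6.95% and 7.23% of windows lower. Input hardly moved, with a median change of -0.01 and 0.0549% of windows lower.

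At most windows the Null immunoprecipitate held less than its own input. In WT, 52.0% of windows held more H3K27me3 than input, and 24.4% held at least 1 log2 more. In Null these shares were 14.5% and 3.87%. Non-overlapping windows took 14.7% of all WT H3K27me3 reads, 14.5% in Het, 12.4% in Null+EZH2 and 5.55% in Null, whereas input gave 8.71% to 9.15% in every line. In marked windows, defined as 8 RPM or more in WT, the share was 6.42% of H3K27me3 reads in WT and 0.448% in Null, close to the 0.498% of Null input reads that fell there.

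**Figure D1:**
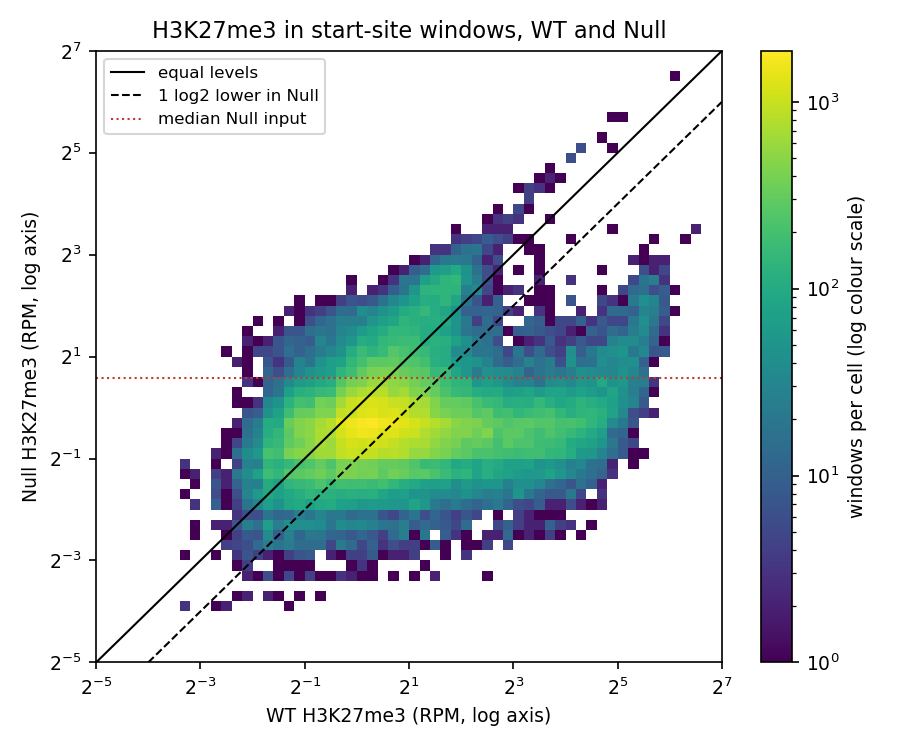
Number of start-site windows at each pair of H3K27me3 levels, WT on the x axis and Null on the y axis (RPM, both log axes; colour is the number of windows per cell on a log scale). The solid line marks equal levels, the dashed line a Null level 1 log2 lower, and the dotted line the median Null input of 1.49 RPM; windows with 8 RPM or more in WT lie in a flat band below the dashed line, with an upturn at the right end.

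By starting level, the Null value was nearly flat while WT climbed. Windows with 1 to 2 RPM in WT had a Null median of 0.831 RPM, those with 4 to 8 RPM 0.759, those with 8 to 16 RPM 0.741 and those with 16 to 32 RPM 0.915. The median changes over these bins were -0.72, -2.83, -3.90 and -4.56. In the 1290 windows with 32 RPM or more, WT held 39.9 RPM and Null 2.2 RPM, and the change was -4.16, smaller than in the bin below. Null+EZH2, which shares the line history of Null, held 36.5 RPM there. In windows with 32 RPM or more in Null+EZH2, a different set, Null against Null+EZH2 gave -3.89. Of the 1290 windows set on WT, 1288 were lower in Null. So were 4317 of 4333 with 16 to 32 RPM and 7306 of 7344 with 8 to 16 RPM, against 44.3% of all windows. At the other end, windows with 2 to 4 RPM changed by -1.59, those with 0.5 to 1 RPM by -0.08 and those under 0.5 RPM by 0.56.

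The rise at the lowest starting level depended on how windows were sorted. When windows were sorted by Het, which is in neither arm of the difference, the lowest bin changed by -0.10 in place of 0.56. The 0.5 to 1 RPM bin then changed by -0.29. The upper bins gave like values under both sorts, with -3.84, -4.48 and -4.24 at 8 to 16, 16 to 32 and 32 RPM or more in Het.

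**Figure D2:**
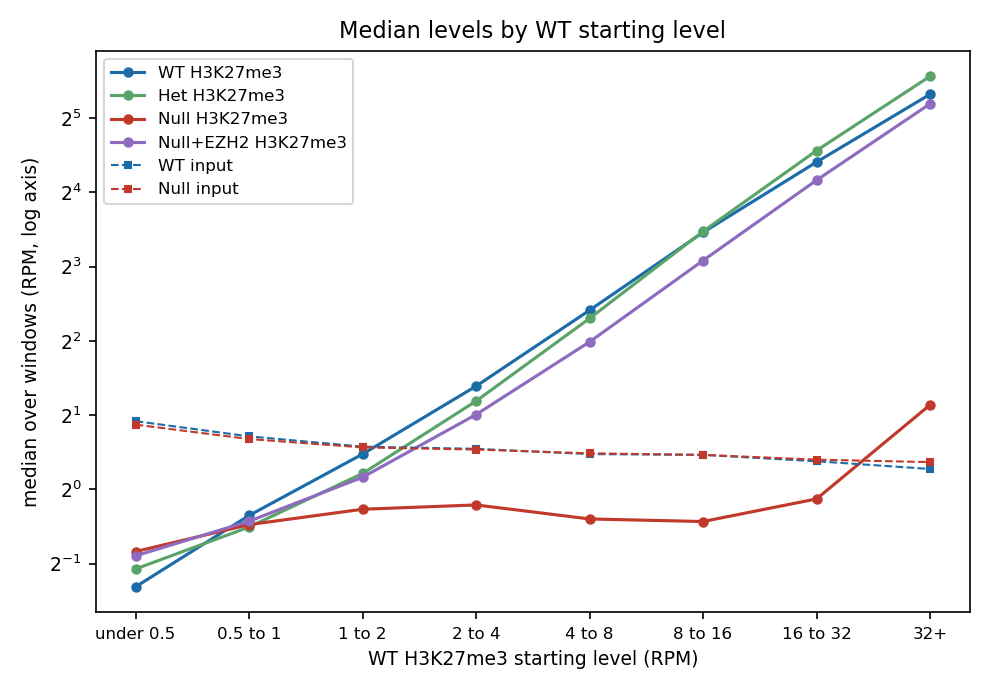
Median level (RPM, log axis) of H3K27me3 in the 4 genotypes and of input in WT and Null, over windows grouped by WT H3K27me3 (x axis, RPM). Het and Null+EZH2 follow WT across all 8 bins, whereas Null stays between 0.560 and 0.915 RPM up to 32 RPM and then reaches 2.2 RPM, above the Null input of 1.29.

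In the strongest WT windows the Null level stood a little above its input. With 32 RPM or more in WT, 80.9% of windows (1043 of 1290) held more Null H3K27me3 than Null input, and the median excess was 0.81 on the log2 scale. With 16 to 32 RPM this share was 24.2%, and with 8 to 16 RPM 9.19%. A Null level above input was not particular to strong WT windows. It held at 53 of 72 ribosomal protein genes and 218 of 249 zinc finger genes on chromosome 19, against 14.5% of all windows. Of these lists 0 and 3 genes were marked in WT. The remaining level was 5.60% of WT in the highest bin and 4.24% in the bin below. EZH2 occupancy in WT, a single ChIP-seq library, was 5.38 RPM in the highest bin, 1.58 RPM in the bin below and 0.311 RPM at the median of all windows. Within windows of 16 RPM or more, the 1402 with the most EZH2 had a Null median of 2.09 RPM and the 1421 with the least had 0.856, but their WT levels also differed, at 37.3 and 18.9 RPM. Across 3538 non-overlapping marked windows, Spearman's rho was 0.93 between WT and Het H3K27me3, 0.88 between WT and Null+EZH2 and 0.41 between WT and Null; these windows share the WT libraries and are given as a description.

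Domains were compared by their width. Marked windows no more than 5 kb apart were joined into 3406 domains. Null H3K27me3 exceeded Null input in 20.6% of the 918 domains made of 1 window, in 16.9% of the 2227 that spanned over 5 to 10 kb, in 37.4% of the 219 that spanned over 10 to 20 kb, in 51.4% of the 37 that spanned over 20 to 40 kb, and in all 5 that spanned more than 40 kb. The WT level also went up with span, from 13.1 to 43.8 RPM. The 5 widest were the HOXA domain (111 kb, 43.8 RPM in WT and 3.64 in Null), the HOXC domain (76.2 kb, 53.1 and 4.04), the HOXD domain with EVX2 (58.2 kb, 41.0 and 2.47), the HOXB domain (45.9 kb, 59.2 and 3.16) and a domain over SAMD11 (42.3 kb, 28.7 and 2.25). A domain on chromosome 10 over BMI1, a PRC1 subunit, and its neighbours COMMD3 and SPAG6 was 34.5 kb wide and lay below its input of 1.42 RPM in Null, at 14.5 RPM in WT and 0.528 in Null. A domain of 39.5 kb on chromosome 16 with HSF4 and TRADD went from 31.1 to 1.94 RPM, and one of 34.6 kb with NR2F1, a nuclear receptor of neural development, from 30.9 to 1.97 RPM.

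The HOX genes encode the homeodomain factors that pattern the body axis, in 4 clusters. All 39 measured HOX genes were lower in Null, against 46.7% of gene names (16084 of 34447). In all 39 Null stood below WT, Het and Null+EZH2, against 60% of all windows. Their changes ran from -5.25 at HOXB13 to -2.72 at HOXC12. HOXB6, HOXB9 and HOXB7 held the most in WT, at 62.8, 62.7 and 61.6 RPM, and kept 4.15, 3.72 and 2.91 RPM in Null. HOXC12 and HOXA7 kept the most in Null, at 7.65 and 6.90 RPM, while HOXB2 and HOXB1 kept the least, at 0.692 and 0.730 RPM. Null was at least 1 log2 over its input at 25 of the 39 genes, against 3.87% of all windows.

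Cluster by cluster, the windows of HOXA genes on chromosome 7 had a median of 46.8 RPM in WT and 3.46 in Null, those of HOXB (chr17:48528410-48731678) 58.1 and 2.79, those of HOXC (chr12:53936265-54056377) 50.9 and 3.85, and those of HOXD (chr2:176090391-176191079) 41.9 and 2.51. The median changes were -3.61, -4.30, -3.73 and -4.06. Within HOXA, Null levels peaked in the middle of the cluster, with 2.49 RPM at HOXA3, 4.75 at HOXA6, 6.90 at HOXA7, 5.54 at HOXA10 and 2.80 at HOXA13. In WT the anterior end of HOXB was already lower than the rest, with 13.9 RPM at HOXB1 and 18.1 at HOXB2. At this pair Het held 29.7 and 42.4 RPM, more than WT by over 1 log2, whereas Null+EZH2 held 8.82 and 10.6 RPM.

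**Figure D3:**
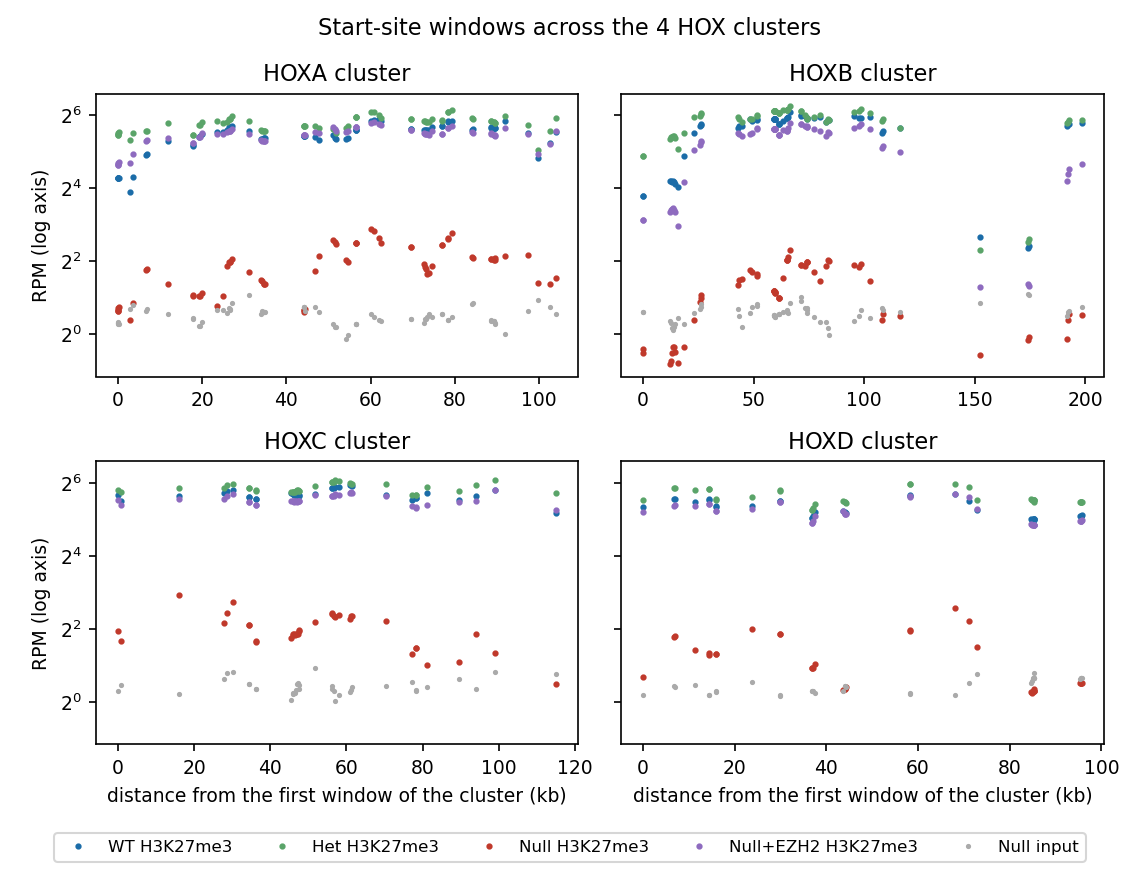
H3K27me3 in the 4 genotypes and Null input (RPM, log axis) at every start-site window across each HOX cluster, by distance in kb from the first window in genome order, which is the anterior end of HOXA and HOXB and the posterior end of HOXC and HOXD. WT, Het and Null+EZH2 lie together near 50 RPM over most of each cluster, Null lies between 0.574 and 7.65 RPM at HOX genes, and Null comes down to its input at the HOXB1, HOXB13 and HOXD1 ends.

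Most lineage transcription factors held far less of the mark in Null. Of 22 forkhead factors 21 were lower in Null (median change -4.21), of 20 T-box and GATA factors 18 (-4.13), of 34 LIM, NK, DLX and IRX homeobox factors 33 (-3.82), of 31 lineage bHLH factors 29 (-3.79), of 15 PAX and sine oculis homeobox factors 14 (-3.75) and of 18 SOX factors 12 (-2.96). Against these stood 46.7% of all gene names. Among forkhead factors, FOXF1 and FOXF2 of the lateral mesoderm went from 45.4 to 2.86 RPM and from 40.6 to 2.05 RPM, and FOXE1, a thyroid factor, from 43.6 to 4.17 RPM. TBX2 and TBX5, both of heart and limb development, went from 53.3 to 5.49 and from 45.7 to 2.17 RPM, and GATA2, a blood factor, from 45.5 to 2.49 RPM. DLX4 went from 53.5 to 3.23 RPM, NKX2-3 from 50.9 to 5.52 and LHX1, of intermediate mesoderm, from 46.6 to 3.36. Among bHLH factors, HAND2 went from 43.3 to 4.35 RPM and BHLHE23 from 43.6 to 4.87 RPM. PAX1 and PAX9 kept 4.40 and 4.02 RPM in Null from 50.6 and 45.0, while SIX6, an eye field factor, kept 1.82 from 46.2. SOX7, an endothelial and endoderm factor, showed one of the deeper changes of the group, from 41.4 to 1.21 RPM (-5.10, counting error 0.255), whereas SOX14 kept 3.56 of 43.9 RPM.

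Secreted ligands were lower too. Of 19 WNT ligands 18 were lower (median change -4.05), with WNT3A at -4.03, WNT7B at -4.12 and WNT10A at -5.11. Of 23 BMP and GDF ligands 21 were lower (-2.75). Their medians after DOX were 9.18 RPM for WNT and 2.96 RPM for BMP and GDF ligands in Null+EZH2, against 16.4 and 7.75 RPM in WT. GDF7, BMP8A and BMP6 held 42.4, 32.7 and 31.5 RPM in WT and 1.73, 1.33 and 1.29 RPM in Null. All 7 CDK inhibitors, which restrain the cell cycle, were lower (-4.07). CDKN2A, which encodes p16 and p14ARF, went from 26.5 to 0.676 RPM, CDKN1A (p21) from 15.3 to 1.06 RPM and CDKN2C (p18) from 14.8 to 0.878 RPM.

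Potassium channel and neurotransmitter receptor genes were marked less strongly than most of the lists above and moved with their starting level. Of 81 potassium channel genes 71 were lower (-3.47) and of 92 neurotransmitter receptor genes 74 (-2.87). KCNK4 went from 29.8 to 0.980 RPM and KCNK17 from 28 to 1.06 RPM. GRIN2C and GRIN1, subunits of the NMDA receptor, went from 34.3 to 1.16 and from 28.9 to 1.53 RPM, and the muscarinic receptor CHRM2 from 26.1 to 1.5 RPM. The 47 marked potassium channel genes had a median change of -4.05 and the 40 marked receptor genes one of -3.76, against -4.14 over all marked windows.

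Ribosomal protein and mitosis genes held little H3K27me3 in either line, and pluripotency genes were mixed. Of 72 cytosolic ribosomal protein genes 4 were lower and 6 higher, with a median change of 0.15 and medians of 1.37 RPM in WT and 1.51 in Null. RPL22 was an exception, at 3.78 RPM in WT and 0.581 in Null. Of 25 mitosis genes 6 were lower (-0.42), BUB3, a spindle checkpoint protein, the most marked of them at 4.24 RPM in WT and 0.674 in Null. Against Null+EZH2 the mitosis median was -0.05. Among 18 pluripotency genes, 4 were marked in WT (3176 of 34447 gene names were), 6 were lower and the median change was -0.30, which turned to 0.16 when Null was set against Null+EZH2. The lower ones include KLF4 (27.2 to 1.17 RPM), UTF1 (25.5 to 1.16 RPM) and FGF4 (18.4 to 0.531 RPM). POU5F1, a core factor, held 2.60 RPM in WT, 1.36 in Het, 1.52 in Null and 1.26 in Null+EZH2, and WT stood above the other 3 lines.

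Some Polycomb genes carried the mark. Of 28 Polycomb subunit genes 6 were marked in WT and 16 were lower (57.1%, against 46.7% of gene names; median change -1.80), among them the PRC1 subunits CBX8 (48.5 to 3.75 RPM) and PCGF5 (14.7 to 0.743 RPM). Of 23 imprinted genes 11 were lower (-0.91) and 6 were marked in WT. IGF2, a growth factor, went from 24.8 to 1.72 RPM, PHLDA2, a placental growth regulator, from 21.1 to 0.782, and DLK1, a Notch-related ligand, from 15.6 to 0.992. Of 24 germline genes 11 were lower (-0.89), and of 147 keratin and keratin-associated genes 63 were lower and 27 higher (-0.76). The lower shares of the imprinted, germline and keratin lists, 47.8%, 45.8% and 42.9%, are near the 46.7% of all gene names. The higher share of the keratin list, 18.4%, was above the 3.66% of all gene names. DMRT1, a testis factor, went from 28.5 to 2.79 RPM and FIGLA, an oocyte factor, from 26.2 to 1.37 RPM.

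Some gene families had a higher median RPM in Null than in WT. RPM is a share of the library, and non-overlapping marked windows held 6.42% of H3K27me3 reads in WT and 0.448% in Null. A higher RPM elsewhere can thus be a larger share without more of the mark. Which of these holds was not tested. The 249 zinc finger genes on chromosome 19, KRAB repressors for the most part, had medians of 2.77 RPM in WT, 2.84 in Het, 4.00 in Null and 3.08 in Null+EZH2, over a Null input of 1.28. Their median change was 0.50, with 29 higher (11.6%, against 3.66% of all gene names) and 19 lower. Null stood above all 3 other lines at 164 of them, against 15.2% of all windows. It was at least 1 log2 over its input at 171, where WT was so at 133. Of all windows, 3.87% were so in Null and 24.4% in WT. The clustered protocadherins, adhesion proteins of neurons, went from 2.57 to 3.25 RPM (0.54), and 39 of 53 stood highest in Null, against 15.2% of all windows. The olfactory receptor genes went from 1.54 to 1.91 RPM (0.26), with 45 of 382 higher (11.8%) and 39 lower. The members that were marked in WT were lower in Null, to different depths. ZNF536 went from 14.5 to 0.642 RPM, ZNF324B from 11.1 to 2.73 RPM and ZNF799 from 8.10 to 3.93 RPM, and the 3 marked zinc finger genes had a median change of -2.03. OR4D1 went from 11.4 to 0.915 RPM, OR10AD1 from 9.85 to 2.65 RPM and PCDHAC1 from 11.6 to 0.943 RPM. Members of these families are close copies of one another, and reads may be split between copies, so the values of single members are uncertain.

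Windows with Null signal over input were few and of mixed kinds. In 5785 windows Null exceeded its input by 1 log2 or more. Of these, 828 were marked in WT (14.3%, against 8.67% of all windows) and 66 belonged to HOX genes (1.14%, against 0.0749%). Chromosome 19 held 1828 of them (31.6%, against 7.12% of all windows), and 954 belonged to its zinc finger genes (16.5%, against 0.973%). Of the 5303 windows that were higher in Null, 3883 held under 1 RPM in WT (73.2%, against 28.1% of all windows). Their highest level of the 4 lines was in Null at 89.8%, against 15.2% of all windows. These windows were selected for Null above WT, which favours that share. Their medians were 0.570 RPM in WT, 0.824 in Het, 1.62 in Null and 1.03 in Null+EZH2, over a Null input of 1.55, so the median higher window stood near its input.

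Single genes mark the ends of the range. Among 3175 gene names with 8 RPM or more in WT and 0.5 RPM or more of input, the largest changes were at DBX2, a neural homeobox gene (17.2 to 0.205 RPM, -6.39), the neighbouring RP11-478B9.1 (17.1 to 0.205 RPM), RP11-172H24.4 (15.0 to 0.191 RPM), RAMP1, a receptor activity-modifying protein (15.9 to 0.212 RPM, -6.23), and the non-coding RNA CISTR (38.6 to 0.532 RPM, -6.18). Their counting errors were 0.380 to 0.633, and the Null values of the first 4 lie under the floor of 3 reads. At the other end 25 of the 3175 names were higher in Null than in WT by any amount. The 5 most so were the DUX4L6, DUX4L7 and DUX4L8 copies of a repeat array on chromosome 4 and 2 non-coding names on chromosome 21, bP-21264C1.2 and bP-2189O9.3. DUX4L8 held 8.72 RPM in WT, 9.89 in Het, 18.7 in Null and 9.45 in Null+EZH2, with inputs of 1.91 and 1.77. These are near-identical copies, and bP-21264C1.2 had an input of 7.95 RPM, and reads may be split between copies. Among 3389 names with at least 2 RPM in Null, 759 were higher by 1 log2 or more. The largest of these changes, 3.18 to 3.57, were at AP000402.3, RP11-525J21.1, RP11-622J8.1, AP000469.2 and RP11-6B4.1, non-coding names with WT levels of 0.180 to 0.347 RPM, 4 of them under the floor, and counting errors of 0.594 to 0.818.

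The genes with promoters that the study assayed by ChIP-qPCR span the range. GATA4 and SOX17, endoderm factors, went from 28.9 to 1.80 and from 32.4 to 1.80 RPM. MESP1, a cardiac mesoderm factor, held 15.6 RPM in WT, 27.7 in Het, 1.62 in Null and 23.1 in Null+EZH2. TMEM255B went from 7.02 to 0.698 RPM. GAPDH, an unmarked control, went from 1.43 to 2.54 RPM (0.82, counting error 0.33).

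CpG content was higher where the mark was. By the CpG content around the start, 73219 windows were high (HCP), 46059 intermediate (ICP) and 30209 low (LCP). HCP windows had the larger median change, -1.16, against -0.57 in ICP and -0.60 in LCP, and 54.1% of them were lower in Null, against 34.6% and 35.4%. Of marked windows 89.3% were HCP, against 49.0% of all windows. At high WT levels the classes differed little, and at low ones they differed more. Under 0.5 RPM the changes were 0.88 in HCP, 0.51 in ICP and 0.48 in LCP, and at 0.5 to 1 RPM they were 0.10, -0.17 and -0.19. With 8 to 16 RPM the changes were -3.91 in HCP, -3.86 in ICP and -3.77 in LCP, and with 16 to 32 RPM they were -4.56, -4.48 and -4.57. In the RefSeq promoters of 15027 matched names, the median number of CG dinucleotides was 22 in all, 24 in the 189 with 32 RPM or more in WT, 1 in olfactory receptor genes and 25 in ribosomal protein genes. Of all these promoters 2.15% held no CG, against 0% of those with 32 RPM or more and 21.5% of olfactory receptor promoters.

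Other histone marks were read in the marked windows, also as 1 value per genotype. H3K4me3 had a median change of -0.08, H3K27ac of 0.68 and H3K4me1 of 0.37, where over all windows the changes were -0.15, 0.27 and 0.06. H3K27ac in marked windows went from a median of 1.48 RPM in WT to 2.38 in Null.

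RNA is the only readout here with separate replicate libraries, and p-values measure the spread between these libraries, which the paper describes as biological replicates. Of 20608 genes whose mean reached 0.1 RPM, 2593 (12.6%) were higher and 3870 (18.8%) lower in Null than in WT (limma on log2(RPM + 0.1), which understates the change of low genes, adjusted p under 0.05). This fit left out the replicate number, and with it as a block 3566 genes were higher and 5773 lower. The median change of all genes was -0.13. Rescaling by the median ratio moved it to -0.02 and gave 3279 higher and 2925 lower genes, so that the share of higher genes among those called went from 40.1% to 52.9%.

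By WT H3K27me3 level of the gene, the share higher in Null went from 5.09% of tested genes under 0.5 RPM and 4.87% at 0.5 to 1 RPM through 8.62% at 1 to 2 RPM and 15.2% at 4 to 8 RPM to 19.3% at 8 to 16 RPM, 25.5% at 16 to 32 RPM and 44.7% (72 of 161) at 32 RPM or more. The share that was lower was 22.1% at 4 to 8 RPM and 11.2% at 32 RPM or more. Genes that are silent in WT pass the filter on low values through Null itself, which favours higher calls, and only 161 of the 381 genes in the highest bin were tested. Counted over all genes with a window, tested or not, 18.9% of the highest bin was higher, against 6.45% of all genes, and 4.72% was lower, against 11.1%. Without a filter 96 of the 381 (25.2%) were higher. Most genes of the highest bin were therefore not called higher.

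**Figure D4:**
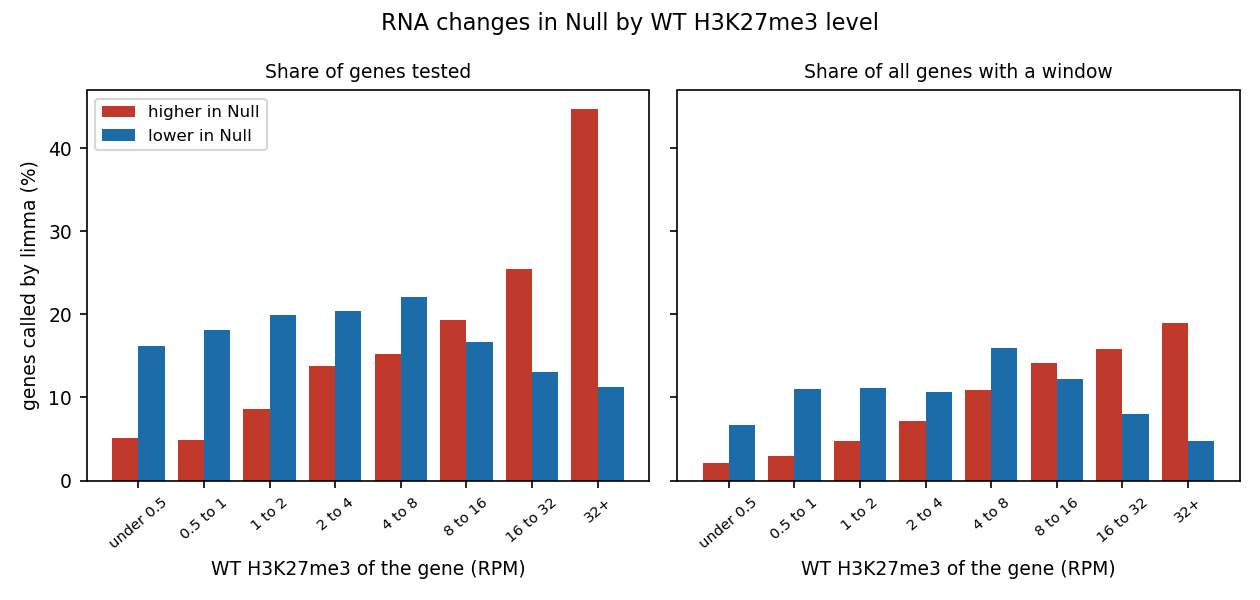
Share of genes (%) called higher (red) or lower (blue) in Null than in WT by limma, by the WT H3K27me3 level of the gene (RPM), of genes tested on the left and of all genes with a window on the right. On both scales the higher share climbs from 1 RPM upward, to 44.7% of tested and 18.9% of all genes at 32 RPM or more.

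Among HOX genes, 21 of 39 were tested, and 11 of these rose and 2 fell (12.6% and 18.8% of all tested genes). Of the 11 that rose, 10 had a mean under 0.1 RPM outside Null and so entered the test only through Null, which favours a rise. HOXD13 stood at 0, 0.0507 and 0 RPM in WT and at 2.13, 4.37 and 2.49 RPM in Null, with no overlap (log2 change 4.69, SE 0.32). HOXB13 and HOXA13, also at the posterior ends, rose by 4.06 and 3.72, and HOXB6 and HOXB7 by 3.42 and 2.71. The 2 that fell were the anterior genes HOXA2 (-3.42) and HOXB1 (-2.15). HOXB1 stood at 13.8, 35.8 and 7.65 RPM in WT, and at 2.78, 2.97 and 4.87 RPM in Null. In Het it stood at 0.735, 0.389 and 0.463 RPM, and in Null+EZH2 at 3.14 to 8.79 RPM, which overlaps WT. HOXA2 stood at 1.14 to 4.67 RPM in WT, 0.0178 to 0.220 in Het and 0 to 0.103 in Null+EZH2. Low RNA of these 2 genes was thus not particular to Null. HOXB9, with the second highest H3K27me3 of all HOX genes, did not pass the test (0.21, SE 0.69, adjusted p = 0.839 in limma).

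The lists varied, beside the 12.6% of all tested genes that rose and the 18.8% that fell. Of the tested forkhead factors 10 of 19 rose and 1 fell, of T-box and GATA factors 13 of 17 rose, of lineage bHLH factors 8 of 18, and of LIM, NK, DLX and IRX factors 5 of 19 rose and 3 fell. Of these, 3 forkhead, 6 T-box and GATA, 3 bHLH and 1 LIM, NK, DLX and IRX factor rose after entering the test only through Null. HAND1 stood at 0.488, 0.761 and 0.153 RPM in WT and at 2.69, 35.9 and 31.3 RPM in Null (4.86, SE 0.88). FOXF2 rose by 4.49, LHX1 by 4.51, TBX5 by 3.15 and GATA2 by 2.80. CDKN2A stood at 0.444, 0.456 and 0.328 RPM in WT and at 10.0, 14.1 and 15.0 RPM in Null, the 2 groups far apart (4.68, SE 0.32, limma adjusted p = 5.05e-06). In other lists as many or more genes fell as rose. Of the tested WNT ligands 4 of 16 rose and 7 fell, with changes of -1.83 at WNT3A and -2.58 at WNT7B. Of PAX and sine oculis homeobox factors 3 of 12 rose and 4 fell, and of SOX factors 4 of 16 rose and 6 fell. DLK1 stood between 67.6 and 119 RPM in WT and between 2.83 and 9.74 RPM in Null (-4.07). Of the most marked Polycomb genes, CBX8 (-0.02, SE 0.33) and PCGF5 did not pass the test, and of 28 in the list 1, BMI1, rose and 7 fell. None of the 72 ribosomal protein genes passed the test in either direction with limma; at an unadjusted p under 0.05, 6 were lower and 0 higher.

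Markers of differentiated cells moved with these RNA changes. Summed over its 7 genes, the mesoderm list lay at 50.1 to 85.7 RPM in WT and 189 to 359 RPM in Null, with 5 genes higher. The 6 endoderm genes summed to 20.5 to 33.4 RPM in WT and 81.7 to 161 RPM in Null, with 4 higher. Of the 5 ectoderm genes tested PAX6 and SOX1 were lower and OTX2, ZIC1 and TFAP2A did not pass the test, and NEUROG1 was at 0 in all 3 Null libraries. The 8 ESC genes summed to 2302 to 2947 RPM in WT and 3532 to 4004 RPM in Null, with 5 higher and 1, SOX2, lower. Several of these shifts were not particular to Null. POU5F1, DPPA4 and TDGF1 also stood above all WT libraries in Het and Null+EZH2, whereas NANOG and PRDM14 overlapped WT in Het. POU5F1 held 617 to 792 RPM in WT, 947 to 1095 in Het and 1237 to 1315 in Null+EZH2. PAX6 and SOX1 also stood below all WT libraries in Het and Null+EZH2. PDGFRA stood at 8.15 to 13.1 RPM in Null+EZH2, above its 2.05 to 4.56 RPM in WT. In Het replicate 2 SOX17, GATA4 and GATA6 stood at 19.2, 12.8 and 18.7 RPM, above all WT libraries. In Het replicates 1 and 3 they stood at 2.54 to 5.71, 0.569 to 3.67 and 0.818 to 4.68 RPM. TWIST1 did not share this, at 0.160 to 0.320 RPM in Het and Null+EZH2. In bulk samples more cells of a type and more RNA per cell cannot be told apart. The part of differentiated cells in the H3K27me3 change was not tested.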

How the data were processed

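H3K27me3 and input were read by native ChIP-seq after MNase digestion, and RNA by RNA-seq, in 4 genotypes of H9 cells. The authors deposited log2 RPM values per start-site window and per gene, made from reads trimmed with Trim Galore 0.4.0 and mapped to GRCh38 with Bowtie2 2.2.5 (RNA with TopHat2 2.0.12), per the submitters' processing notes, and counted in SeqMonk. Their ChIP columns are means over libraries on the log2 scale, so low values are pulled towards the floor; the steps of low values gave the depth, and windows with 0 reads carry 0.9 of 1 read. Counting errors and floors of 3 reads cover counting error only.

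Window changes are Null minus WT. A gene's level is the log2 of its mean RPM over its windows. Windows overlap, so their counts are not independent. CpG classes followed the GC and CpG content of 500-base intervals in GRCh38, and 84.34% of window centres were transcript starts in GENCODE 44. RNA was tested with limma 3.58.1 in R 4.3.3 (trend, Benjamini-Hochberg) on log2(RPM + 0.1) over all 12 libraries, for genes whose mean reached 0.1 RPM, after a test on simulated data. RNA libraries with the same replicate number tended to deviate alike from their group means. All 18 same-number correlations lay between 0.107 and 0.56, against -0.489 to 0.245 for other pairs, so the ranges overlap. Deviations within a group cancel, so positive same-number values push the other pairs down. The main RNA fit left this pairing out, and a fit with it is given below. The pairing comes from the data, not from a label that names a batch.

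Named genes were the 3 with the most WT H3K27me3 per list, the 5 at each end of the change and the 5 largest rises, genes assayed by ChIP-qPCR, HOX genes and EZH2, of which some are not reported here; other genes named were chosen after their values were seen. The members and lists were chosen with earlier results of these data known. Alternatives were other pseudocounts, subtraction of input, recentring, non-overlapping windows, sorting by Het, Null+EZH2 as reference, 1 window per gene, an input filter, and for RNA a replicate block, other scalings and filters, and leaving out each library.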

Additional observations from a re-analysis of the deposited data

How the results depend on the processing

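The direction of the H3K27me3 change held for all windows, the highest starting level and the 3 CpG classes in every alternative run, but its size depended on the scale. With log2(RPM + 0.1) the change over all windows was -0.74, in the highest bin -4.10, in the lowest bin 0.47 and in HCP, ICP and LCP windows -1.06, -0.51 and -0.54, with 41.2% of windows lower and 2.72% higher. With log2(RPM + 1) these were -0.40, -3.67, 0.18, -0.62, -0.26 and -0.27, with 24.9% and 0.49%, and Null over input in the highest bin was 0.51. After subtraction of input the lowest bin changed by 0.59 and the classes by -1.18, -0.54 and -0.59, with 4.47% higher. Centred on the windows lowest in Het, the values were -0.62, -3.96, 0.76, -0.96, -0.38 and -0.40, with 38.6% lower and 5.64% higher. In non-overlapping windows they were -0.66 over all, 0.51 in the lowest bin, -1.47, -0.49 and -0.50 in the classes and 0.67 over input, with 38.9% and 4.70%. Sorted by Het, the highest bin was -4.24 and 0.54 over input, and the lowest bin reversed to -0.10; the cause was not tested. Against Null+EZH2, with the bins also set on Null+EZH2, the values were -0.51, -3.89, 0.46, -0.82, -0.30 and -0.34, with 34.2% and 2.55% and 1.08 over input. Against this reference the pluripotency list reversed to 0.16, and the mitosis, germline and ribosomal protein lists moved to -0.05, -0.39 and 0.35. With the first window per gene the highest bin was -4.11 and the classes -1.37, -0.62 and -0.57, with 4.58% higher.

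For RNA, the fit with the replicate block as pairing called 3566 genes higher and 5773 lower, and 50.3% of tested genes in the highest bin higher. Without a filter this share was 25.2%. Leaving out 1 library gave 1796 to 2294 higher and 2343 to 3374 lower genes and a share of 35.4% to 47.2%; the lower count was 2466 without WT replicate 2 and 2343 without Null replicate 2, and the share 35.4% without Null replicate 2. No paired analysis was possible for H3K27me3 because each column is 1 value per genotype. Single windows near the floor of 3 reads are limited by depth.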
